A study of Mus musculus with 10 samples.

Results

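The genes described here are the 7 that encode the invariant chains of the T cell receptor complex and its coreceptors: Cd3d, Cd3e, Cd3g, Cd247, Cd4, Cd8a and Cd8b1. They were chosen by name from a table of 20617 genes. The names in the table are out of step with the values, and for these genes the values were taken 3 rows above the row that carries the name. All 7 were found in this way, and all 7 passed the minimum for testing, a mean of 1 normalized count, as did 20249 rows in all.

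RNA was sequenced in bulk from CD3+ T cells of the spleen of Nf1OPG mice, a strain that develops low-grade gliomas of the optic nerve. In all mice of both groups 1 copy of Nf1 is mutant in the germline, and the other is lost in cells in which the GFAP promoter drives Cre (Nf1flox/mut; GFAP-Cre, on C57BL/6). The T cells therefore carry 1 mutant copy throughout, and no wild-type mouse served as a control here. The OVA group received chicken egg ovalbumin for 2 weeks, to induce experimental asthma. It was given with alum into the peritoneum and then in PBS into the nose. The PBS group is described as receiving PBS only. Alum is described only with ovalbumin, so that the 2 cannot be told apart here. Each group had 5 libraries, PBS replicates 1 to 5 and OVA replicates 6 to 10. The treatment is described between 4 and 6 weeks of age, whereas neither the age at which the spleens were taken for sequencing nor any pooling of mice is stated. The labels describe kits for separate CD4+ and CD8+ T cells and also name the sequenced cells as CD3+ T cells, and whether the kits were used for the sequenced cells is not stated. The libraries held 6835696 to 23130017 reads in the PBS group and 14711683 to 29915782 in the OVA group, with the fewest in PBS replicate 3.

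The T cell receptor recognizes peptides on MHC molecules through variable chains that signal poorly on their own. The signal is passed on by the CD3 chains, which assemble as dimers of epsilon with delta and of epsilon with gamma, and by a dimer of zeta chains. CD3 epsilon is thus needed in both CD3 dimers. CD4 binds MHC class II and CD8 binds MHC class I, and both bring the kinase Lck to the receptor. CD8 on T cells of the spleen is mostly a dimer of an alpha and a beta chain.

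Cd3g, Cd3d and Cd3e lie together on chromosome 9 in GRCm38. Cd3g (chr9:44969572-44980431, minus strand) and Cd3d (chr9:44981786-44987339, plus strand) are transcribed away from each other, with 1354 bases between them. Cd3e (chr9:44998740-45009627, minus strand) follows 11400 bases beyond Cd3d. Cd8b1 (chr6:71322788-71337494) and Cd8a (chr6:71373427-71379173) lie on the plus strand of chromosome 6, 35932 bases apart. Cd4 is on the minus strand of the same chromosome (chr6:124864692-124888221), and Cd247 is on the plus strand of chromosome 1 (chr1:165788681-165877277).

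The 250 bases before the start of Cd3d, Cd3g and Cd3e are shown because these neighbours encode the CD3 dimers and Cd3e had a wider spread across the libraries than the other 2. They are RefSeq sequences of GRCm38.p6, read on the strand of the gene, for Cd3d from chr9:44981536-44981785 (plus), for Cd3g from chr9:44980432-44980681 (minus) and for Cd3e from chr9:45009612-45009861 (minus). Starts are those of RefSeq, and that of Cd3e lies inside the gene as given above, so that 16 bases of its window overlap the GENCODE gene. Capitals mark matches on either strand to CAGNTG (a form of E-box bound by E proteins), to GGAAGT (a sequence bound by ETS factors) and to TGACGT (part of the cyclic AMP response element). Other forms of these sites were not searched.
Cd3d: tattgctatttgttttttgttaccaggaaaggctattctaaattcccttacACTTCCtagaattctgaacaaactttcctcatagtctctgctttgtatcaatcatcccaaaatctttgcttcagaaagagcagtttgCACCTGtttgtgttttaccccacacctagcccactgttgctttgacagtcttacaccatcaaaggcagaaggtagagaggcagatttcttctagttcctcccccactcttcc
Cd3g: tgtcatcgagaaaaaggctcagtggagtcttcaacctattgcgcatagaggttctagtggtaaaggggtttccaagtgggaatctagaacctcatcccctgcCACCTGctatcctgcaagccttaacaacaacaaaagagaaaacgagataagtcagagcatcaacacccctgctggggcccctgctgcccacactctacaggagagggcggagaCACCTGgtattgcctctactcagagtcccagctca
Cd3e: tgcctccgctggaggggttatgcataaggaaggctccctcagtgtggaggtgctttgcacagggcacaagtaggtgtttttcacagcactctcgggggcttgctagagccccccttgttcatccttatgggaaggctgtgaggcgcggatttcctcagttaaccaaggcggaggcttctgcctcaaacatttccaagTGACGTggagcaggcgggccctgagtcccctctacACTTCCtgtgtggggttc

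The window of Cd3d held 1 CAGNTG, 112 bases before the start, and 1 GGAAGT. That of Cd3g held 2 matches to CAGNTG, 148 and 35 bases before the start, and no GGAAGT. That of Cd3e held no CAGNTG, 1 GGAAGT 18 bases before the RefSeq start, at the edge of the GENCODE gene, and 1 TGACGT 53 bases before the RefSeq start. Among 32851 RefSeq windows of this length, 44.8% held CAGNTG, 19.7% held GGAAGT and 6.47% held TGACGT. The RUNX core TGTGGT, in 14.0% of all windows, and TATAAA, in 12.4%, were in none of the 5 windows searched, which include those of Cd247 and Cd8a. In GC content the window of Cd3e, at 57.2%, was above those of Cd3g (51.6%), Cd3d (41.2%), Cd247 (41.2%) and Cd8a (42.8%). A match to letters is no measure of binding. Cd4 and Cd8b1 had no entry.

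None of the 7 genes differed between OVA and PBS beyond the spread between libraries. With limma on log2(normalized counts + 1) and Benjamini-Hochberg adjustment over all rows, 0 of 7 were called at an adjusted p-value of 0.05, where 0.00494% of all rows were called. At an unadjusted p-value of 0.05, limma called 0 of the 7 and 9.77% of all rows. On the recovered reads, edgeR called 0 of 7 (0.00988% of all rows) and DESeq2 0 of 7 (0.825% of all rows), and neither had any of the 7 at an unadjusted 0.05. In 1.78% of all rows the values of the groups did not overlap, which was so for 0 of the 7. The fitted differences ran from -0.20 to 0.10 on the log2 scale, with 4 above 0 and 3 below, and their median was 0.056 beside 0.042 over all rows. Exact two-sided permutation of the libraries gave unadjusted p-values of 0.333 for Cd3g to 0.881 for Cd3e.

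Cd3d, the CD3 delta chain, was at 22572, 15190, 11366, 16778 and 15902 normalized counts in PBS replicates 1 to 5 and at 14149, 18665, 16607, 12520 and 13799 in OVA replicates 6 to 10. PBS replicate 1 was the highest and PBS replicate 3 the lowest, and all 5 OVA libraries fell inside the PBS range. The means were 16361 ± 4040 (SD, n = 5) in PBS and 15148 ± 2461 (SD, n = 5) in OVA. The log2 difference, OVA minus PBS, was -0.091 (SE 0.18, limma adjusted p = 0.895), with a 95% confidence interval of -0.47 to 0.29.

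Cd3g, the CD3 gamma chain, was at 14295, 9724, 9302, 13327 and 10605 in PBS and at 10273, 10617, 12316, 8479 and 9334 in OVA. PBS replicates 1 and 4 were the highest, and only OVA replicate 9 fell below the PBS range. The means were 11451 ± 2232 (SD, n = 5) and 10204 ± 1446 (SD, n = 5), with a log2 difference of -0.16 (SE 0.15, limma adjusted p = 0.769). Cd3g was the steadiest of the 7, its highest library 1.69 times its lowest.

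Cd3e, the epsilon chain that both CD3 dimers share, was at 10030, 6653, 11969, 21432 and 8508 in PBS and at 16191, 9220, 16316, 7099 and 10233 in OVA. PBS replicate 4, OVA replicate 8 and OVA replicate 6 stood above the other 7 libraries, of which the highest was PBS replicate 3 at 11969. High libraries thus occurred in both groups, and all 5 OVA libraries lay inside the PBS range. The means were close to each other, 11719 ± 5771 (SD, n = 5) in PBS and 11812 ± 4210 (SD, n = 5) in OVA, with a log2 difference of 0.056 (SE 0.29, limma adjusted p = 0.965). Its 95% confidence interval, -0.57 to 0.68, was the widest of the 7. The highest library was 3.22 times the lowest.

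The spread of Cd3e was the widest among the CD3 chains. The SD of log2 counts over the 10 libraries was 0.55 for Cd3e, 0.29 for Cd3d, 0.24 for Cd3g and 0.40 for Cd247. Among 2803 rows with a mean of at least 1000 counts, 95.9% had a smaller SD than Cd3e, compared with 88.8% for Cd247, 63.6% for Cd3d and 47.8% for Cd3g. Counting error was small at these depths, since the fewest reads on Cd3e in any library were 4322.

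Cd247, the zeta chain, was at 10229, 6654, 3755, 5971 and 5673 in PBS and at 4393, 6752, 5630, 4389 and 5907 in OVA. PBS replicate 1 was the highest and PBS replicate 3 the lowest, and all 5 OVA libraries lay between them. The means were 6457 ± 2367 (SD, n = 5) and 5414 ± 1021 (SD, n = 5), with a log2 difference of -0.20 (SE 0.22, limma adjusted p = 0.795). This was the difference farthest from 0 among the 7, and its 95% confidence interval was -0.67 to 0.27. Without PBS replicate 1 it was -0.015, and without PBS replicate 3 it was -0.38, in limma at adjusted p-values above 0.05.

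**Figure D1:**
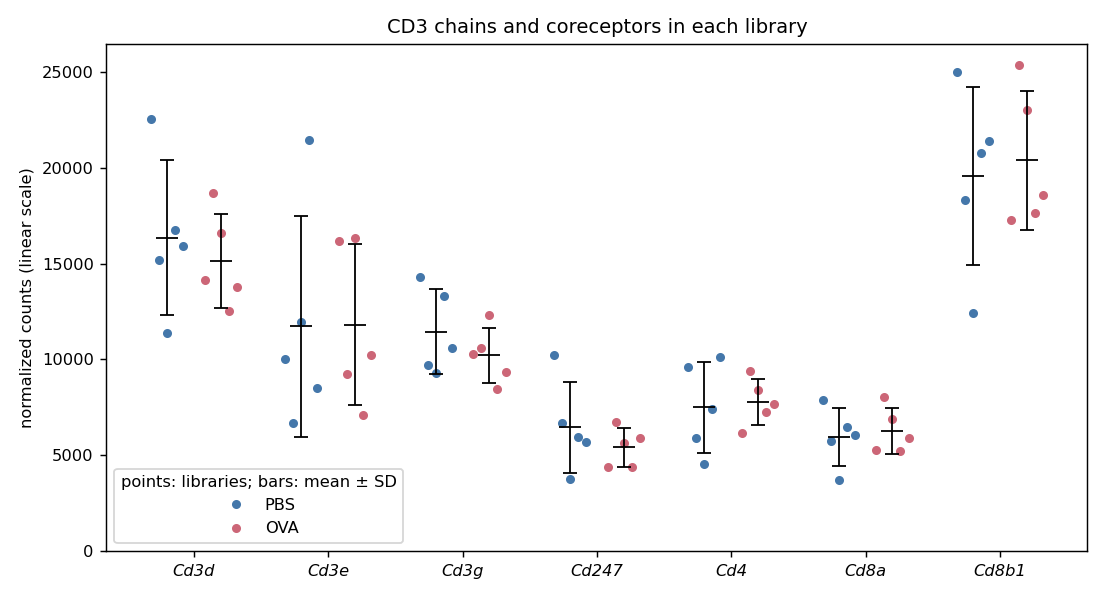
Normalized counts (linear axis) of the 7 genes, with 1 point per library (PBS blue, OVA red) and bars for the mean ± SD of 5 libraries. The groups overlap for every gene, and the points of Cd3e are the most spread for their level, from 6653 to 21432.

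Cd4, the coreceptor of helper T cells, was at 9579, 5911, 4514, 7409 and 10114 normalized counts in PBS and at 6156, 9376, 8406, 7251 and 7694 in OVA. PBS replicates 5 and 1 were the highest and PBS replicate 3 the lowest. The means were 7505 ± 2377 (SD, n = 5) in PBS and 7777 ± 1211 (SD, n = 5) in OVA. The log2 difference was 0.10 (SE 0.20, limma adjusted p = 0.902), with a 95% confidence interval of -0.34 to 0.54.

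Cd8a, the alpha chain of CD8, was at 7894, 5717, 3697, 6444 and 6053 in PBS and at 5259, 8057, 6884, 5208 and 5904 in OVA. OVA replicate 7 was the highest and the only OVA library outside the PBS range. The means were 5961 ± 1514 (SD, n = 5) and 6262 ± 1210 (SD, n = 5), with a log2 difference of 0.093 (SE 0.19, limma adjusted p = 0.902).

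Cd8b1, the beta chain, was at 25014, 18327, 12418, 20749 and 21390 in PBS and at 17278, 25382, 23037, 17635 and 18600 in OVA. As for Cd8a, OVA replicate 7 was the highest and PBS replicate 3 the lowest. The means were 19580 ± 4664 (SD, n = 5) and 20386 ± 3620 (SD, n = 5), with a log2 difference of 0.078 (SE 0.19, limma adjusted p = 0.917). Without PBS replicate 3, the library with the fewest reads, the differences of all 3 coreceptor genes fell below 0, to -0.068 for Cd4, -0.069 for Cd8a and -0.077 for Cd8b1, and none was called by limma.

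**Figure D2:**
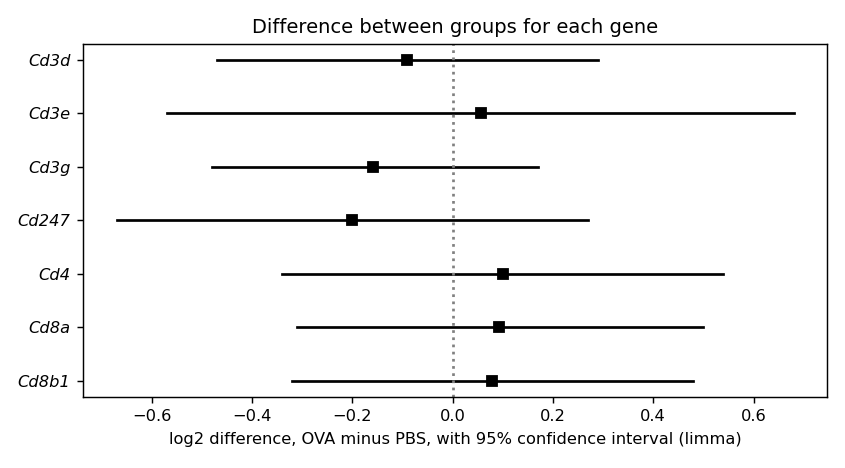
Log2 difference, OVA minus PBS, of each gene in limma (square) with its 95% confidence interval (line), and a dotted line at no difference. Every interval includes 0, and that of Cd3e, from -0.57 to 0.68, is the widest.

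Between genes, levels can be compared only per length. Divided by all exonic bases of the gene in GENCODE release M21, the mean level over the 10 libraries was highest for Cd8b1, at 13475 ± 2670 normalized counts per kilobase (SD, n = 10), and then for Cd3d, at 8680 ± 1773. Cd8b1 was above Cd3d, and Cd3d above Cd3g, in 10 of 10 libraries. Cd3g (3312 ± 578) and Cd3e (2884 ± 1167) followed and did not differ beyond their spread, Cd3g being higher in 6 of 10 libraries. Cd4 (1895 ± 442) lay below Cd3e in 7 of 10 libraries and above Cd8a (1680 ± 358) in 9 of 10, gaps smaller than the SD in both cases. Cd247, at 1114 ± 339, was below Cd8a in 10 of 10. All 7 ranked high in the table, with a mean above that of 97.8% to 99.4% of the rows.

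The order depends on the length used. Cd3g has 3269 exonic bases in all but protein-coding transcripts of 718 bases on average, and for Cd3e the lengths were 4080 and 1462. With the mean protein-coding transcript length, a choice made after seeing the data, the order was Cd3d at 16549, Cd3g at 15080, Cd8b1 at 13475, Cd3e at 8047, Cd247 at 2689, Cd4 at 2458 and Cd8a at 2003 counts per kilobase. Under both lengths, Cd3d was above Cd3g, Cd3g above Cd3e, and Cd4 above Cd8a on average.

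The ratio of Cd4 to Cd8a addresses the balance of the helper and cytotoxic lineages in the sample. In normalized counts it was 1.21, 1.03, 1.22, 1.15 and 1.67 in PBS replicates 1 to 5 and 1.17, 1.16, 1.22, 1.39 and 1.30 in OVA replicates 6 to 10. PBS replicate 5 was the highest and PBS replicate 2 the lowest, and the OVA libraries lay between them. The means were 1.26 ± 0.243 (SD, n = 5) and 1.25 ± 0.0971 (SD, n = 5). The OVA ratio was 1.01 times the PBS ratio on the log scale (exact two-sided permutation p = 0.929), and the 95% interval from the same permutations was 0.82 to 1.20 times. In bulk RNA, a change in the share of cells and a change in RNA per cell cannot be told apart. Each of 8 ratios was tested in this way, the smallest p-value that 5 libraries against 5 allow being 0.00794, and after Benjamini-Hochberg adjustment over the 8 the exact permutation p-value was 0.929 for each.

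The ratio of Cd8b1 to Cd8a was the tightest of the 8. It was 3.17, 3.21, 3.36, 3.22 and 3.53 in PBS and 3.29, 3.15, 3.35, 3.39 and 3.15 in OVA. The highest library was only 1.12 times the lowest, whereas over the same libraries the highest value of Cd8a was 2.18 times the lowest and that of Cd8b1 2.04 times. The means were 3.30 ± 0.150 (SD, n = 5) and 3.26 ± 0.110 (SD, n = 5). OVA was at 0.99 times PBS, with an interval of 0.934 to 1.05 (exact permutation p = 0.698).

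Among the CD3 chains, the ratio of Cd3d to Cd3g was 1.58, 1.56, 1.22, 1.26 and 1.50 in PBS and 1.38, 1.76, 1.35, 1.48 and 1.48 in OVA. PBS replicates 3 and 4 were the lowest and OVA replicate 7 the highest. OVA was at 1.05 times PBS, with an interval of 0.886 to 1.24 (exact permutation p = 0.532).

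The ratio of Cd3d to Cd3e was much wider, at 2.25, 2.28, 0.95, 0.783 and 1.87 in PBS and 0.874, 2.02, 1.02, 1.76 and 1.35 in OVA. It was at most 1.02 in PBS replicates 3 and 4 and OVA replicates 6 and 8, and at least 1.35 in the other 6 libraries. OVA was at 0.903 times PBS, with an interval from 0.457 to 1.86 (exact permutation p = 0.714). In PBS replicate 3 the low ratio came with Cd3d at its lowest, and in PBS replicate 4 with Cd3e at its highest.

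The ratio of Cd3g to Cd3e ran from 0.622 to 1.46 in PBS and from 0.635 to 1.19 in OVA, and that of Cd247 to Cd3e from 0.279 to 1.02 and from 0.271 to 0.732. OVA was at 0.863 times PBS for the first (interval 0.517 to 1.48, exact permutation p = 0.452) and at 0.837 times for the second (0.371 to 2.07, exact permutation p = 0.595). Cd4 to Cd3e ran from 0.346 to 1.19 in PBS and from 0.38 to 1.02 in OVA, and Cd8a to Cd3e from 0.301 to 0.859 and from 0.325 to 0.874. OVA was at 1.03 times PBS for both, with intervals of 0.434 to 2.43 (exact permutation p = 0.905) and 0.491 to 2.33 (exact permutation p = 0.889).

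**Figure D3:**
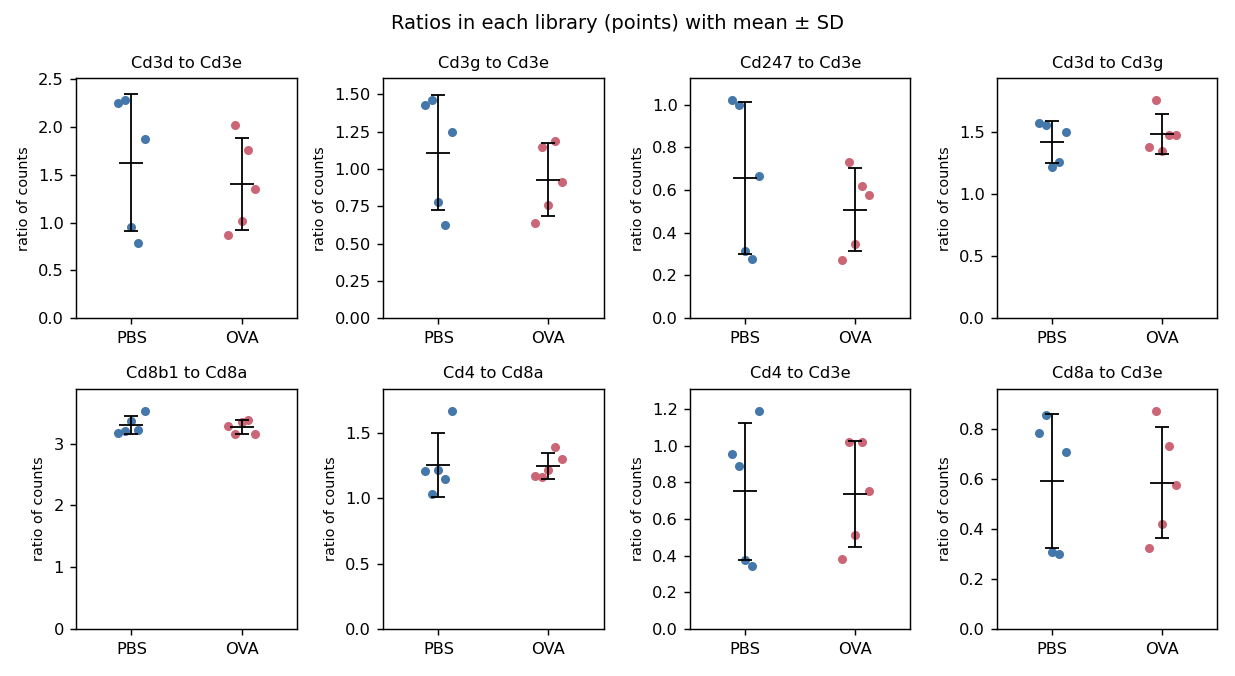
The 8 ratios of normalized counts, each on its own linear axis from 0, with 1 point per library and bars for the mean ± SD of 5 libraries. The ratio of Cd8b1 to Cd8a stays within 3.15 and 3.53, and the ratios to Cd3e spread most in both groups.

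Across the 10 libraries the coreceptor genes varied together, though not they alone, since r between Cd3d and Cd8a was also 0.92. Log2 counts of Cd8b1 and Cd8a correlated with r = 0.99 (permutation p = 2e-05, 0.0001 after adjustment over 5 pairs) and rho = 0.98 (permutation p = 5e-05, adjusted 0.00025). The r was 0.96 without PBS replicate 3 and OVA replicate 7, the libraries farthest from the median of Cd8a. Cd4 and Cd8a correlated with r = 0.86 (permutation p = 0.00185, adjusted 0.00462) and rho = 0.79 (permutation p = 0.00863, adjusted 0.0216). Without the same libraries that r was 0.66. Within the groups r was 0.85 in PBS and 0.91 in OVA for Cd4 and Cd8a, and 0.99 in both for Cd8b1 and Cd8a.

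For the chains paired with Cd3e no correlation passed the test. Cd3d correlated with it at r = 0.083 (permutation p = 0.819, adjusted 0.819) and rho = 0.13 (permutation p = 0.73, adjusted 0.73), and without PBS replicate 4 and OVA replicate 8 at r = -0.10. For Cd247 r was -0.16 (permutation p = 0.655, adjusted 0.819) and rho -0.20 (permutation p = 0.584, adjusted 0.73), and r was -0.29 without those libraries. For Cd3g r was 0.54 (permutation p = 0.111, adjusted 0.186) and rho 0.41 (permutation p = 0.25, adjusted 0.416), but r was 0.19 without them. Within the groups r between Cd3g and Cd3e was 0.48 in PBS and 0.77 in OVA. As a description, r was 0.83 between Cd3d and Cd3g, 0.91 between Cd3d and Cd247, 0.92 between Cd3d and Cd8a, and 0.49 between Cd3g and Cd4, below the 0.54 of Cd3g and Cd3e. Differences between r values were not tested.

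**Figure D4:**
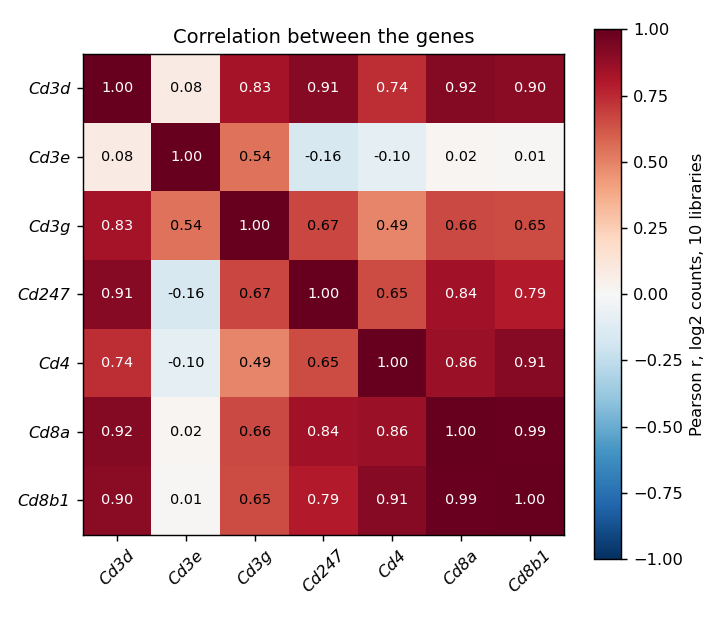
Pearson r between the log2 normalized counts of the 7 genes over 10 libraries, from -1 (blue) to 1 (red). The row of Cd3e holds values from -0.16 to 0.54, and the other pairs lie between 0.49 and 0.99.

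**Figure D5:**
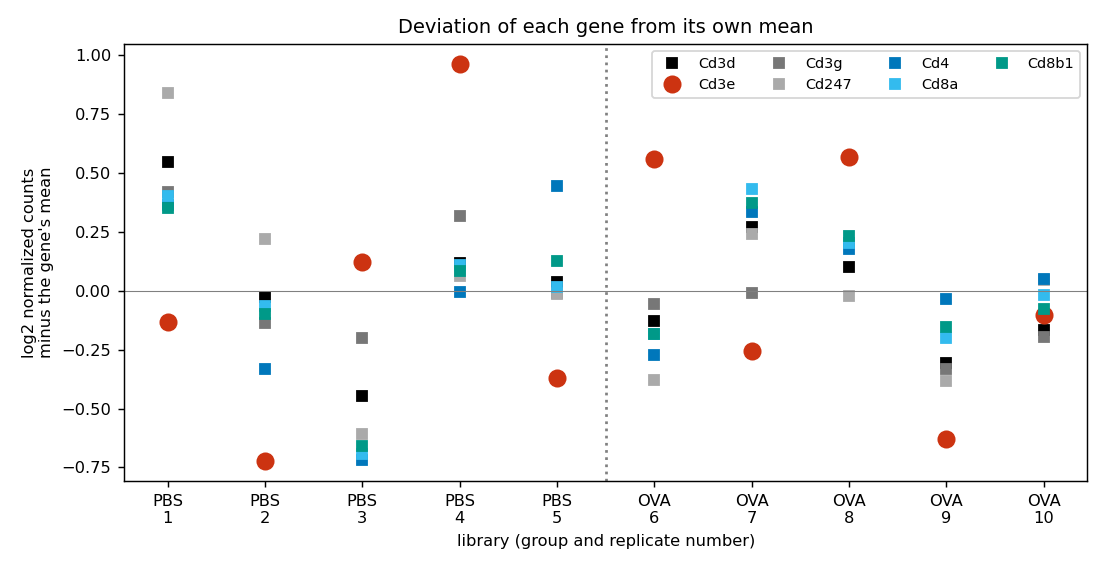
Log2 normalized counts of each gene minus its own mean, by library, with Cd3e as red circles and the other 6 genes as squares. In PBS replicate 3 the other 6 genes lie below their means while Cd3e lies above its own, and Cd3e stands above all 6 in PBS replicate 4, OVA replicate 6 and OVA replicate 8.

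Of 8680 other genes with a mean of at least 100 counts and a placed name, those most like Cd4 over the 10 libraries included Trac (r = 0.986), Stat4 (0.983), the noncoding RNA 9330175E14Rik (0.977) and the pseudogene Rab11b-ps2 (0.961). Trac encodes the constant region of the T cell receptor alpha chain, and Stat4 passes on cytokine signals. For Cd8a they included Stn1 (0.970), Bcdin3d (0.969), Sfxn3 (0.966) and Sash3 (0.962). These 8 genes shared PBS replicate 3 as their lowest library.

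For Cd3e the most alike were Enpp4 (0.868), Gm6525 (0.866), Tmem108 (0.863), Wbp4 (0.850) and Gm7504 (0.847), none of which encodes a known part of the T cell receptor. Gm6525 ran from 1566 to 3655 counts in PBS and from 2094 to 3444 in OVA, with its highest library, PBS replicate 4, and its lowest, PBS replicate 2, the same as for Cd3e. Tmem108 and Gm7504 shared these highest and lowest libraries. Such r values are the highest of many over 10 libraries and describe them only.

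Other annotated genes overlap 2 of the 7, and whether the counting used strand is not given in the sources used here. Within Cd3e lie the antisense gene Gm48719 (chr9:44999429-45002985, plus strand), for which no value was used here, and Gm48720 on the same strand as Cd3e (mean 45.6 counts). Whether reads of this antisense neighbour were counted with those of Cd3e is therefore not known. The 5′ end of Cd247 is overlapped by Gm16565 on the same strand, with a mean of 38.2 counts. The 3′ part of Cd247 is overlapped by Pou2f1 on the other strand, with a mean of 224 counts. Gm37856 (1.35) and Gm37469 (4.22), also on the other strand, had lower means.

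Among the genes that act with these chains, none of those placed was called. Of 4 T cell receptor constant genes only Trac could be placed, and it was at 22062 ± 6061 normalized counts (SD, n = 5) in PBS and 22506 ± 3159 (SD, n = 5) in OVA, a log2 difference of 0.067 (SE 0.20, limma adjusted p = 0.933). Of 22 genes of proximal T cell receptor signalling 21 were placed and tested, and limma, edgeR and DESeq2 called 0 in either direction, with 0 at an unadjusted 0.05 in limma. Over all rows the shares were 0.00494%, 0.00988% and 0.825% called and 9.77% at the unadjusted 0.05. In that list 13 differences were above 0 and 8 below, and the median was 0.025. Lck, the kinase that the coreceptors bring to the receptor and the highest in level of this list, was at 29031 ± 7655 (SD, n = 5) and 27963 ± 3912 (SD, n = 5), a log2 difference of -0.020 (SE 0.19, limma adjusted p = 0.982).

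Of 8 genes of the CD4 lineage 6 differences were above 0 and 2 below, with a median of 0.14, and none was called by limma, edgeR or DESeq2. The highest in level was Izumo1r (folate receptor 4), at 4303 ± 1553 (SD, n = 5) in PBS and 4011 ± 625 (SD, n = 5) in OVA. Gata3, the transcription factor of type 2 helper cells, was the one gene of the list at an unadjusted 0.05 in limma, and is named here after its value was seen. It was at 1737 ± 199 (SD, n = 5) in PBS and 2146 ± 235 (SD, n = 5) in OVA, a log2 difference of 0.31 (SE 0.13, limma adjusted p = 0.445), and the groups overlapped.

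Of 8 genes of the CD8 lineage 7 were placed, 4 with differences above 0 and 3 below, with a median of 0.020, and none was called by limma, edgeR or DESeq2. Nkg7, of cytotoxic granules, was the highest at 17846 ± 4993 (SD, n = 5) in PBS and 15983 ± 2070 (SD, n = 5) in OVA. Eomes, a transcription factor of memory CD8 T cells, was the one at an unadjusted 0.05 in limma, and is likewise named after its value was seen. It ran from 216 to 293 counts in PBS and from 292 to 360 in OVA, a log2 difference of 0.37 (SE 0.15, limma adjusted p = 0.446), with overlapping groups.

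Markers of other cell types were present at levels that differed between libraries, and in some lists all log2 differences had the same sign. In limma all 7 B cell and all 5 neutrophil markers were above 0, with medians of 1.13 and 2.13. All 5 erythroid markers were below 0, with a median of -1.37, where the median of all rows was 0.042. The stromal and endothelial genes were all above 0 as well, and the signs were mixed in the other lists. The summed counts of 7 B cell markers ran from 824 to 2607 in PBS and from 866 to 7015 in OVA, and those of 5 neutrophil markers from 328 to 6067 and from 326 to 58782, both highest in OVA replicate 6. Erythroid markers (5 genes) ran from 2799 to 15262 in PBS and from 427 to 9332 in OVA, macrophage and monocyte markers (7 genes) from 1057 to 5839 and from 892 to 10191. Dendritic cell markers (6 genes) summed to 253 to 510 and 257 to 618, and NK cell markers (4 genes) to 214 to 752 and 277 to 541. For 2 endothelial markers the sums were 1025 to 2160 and 1802 to 2304, nearly all of it Pecam1, with means of 1781 and 2067. Cdh5, the other, had means of 4.54 in PBS and 5.67 in OVA, and Pecam1 had an r of 0.86 with Cd8a. For 3 stromal markers (of 7 listed, the others not placed or near a change of distance) the sums were 5.16 to 30.7 in PBS and 61.6 to 99.7 in OVA. This was the only list whose sums did not overlap. It includes Dcn, which the paper picked from these same data as raised by OVA, and so the sum gives no independent support for a difference. Pdgfrb alone ran from 5.16 to 30.7 in PBS and from 46.5 to 76.9 in OVA. Serping1, at very low counts, ran from 0.0 to 3.23 and from 4.8 to 15.7. For both the groups did not overlap, as in 1.78% of all rows, at limma adjusted p-values of 0.214 and 0.143. Limma and edgeR called none of the marker genes, and 0.00494% and 0.00988% of all rows. At an unadjusted 0.05 in limma were 2 of 7 B cell, 1 of 7 macrophage and monocyte, 2 of 5 neutrophil and 3 of 3 stromal genes. None of the dendritic cell, NK cell, erythroid or endothelial genes was, where 9.77% of all rows were. DESeq2 called 1 of 5 neutrophil genes, Ngp, and 1 of 3 stromal genes, Dcn, beside 0.825% of all rows. Both were higher in OVA and were named after their values were seen. The paper also reports more Dcn after OVA in separated CD4+ and CD8+ T cells of the spleen. Of the libraries with high Cd3e, OVA replicate 6 had the highest neutrophil sum and OVA replicate 8 the lowest. Without OVA replicate 6 the difference of Cd3e was -0.076 in place of 0.056, and limma called none of the 7. The part of other cells in the levels of the 7 genes was not tested.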

How the data were processed

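RNA of spleen CD3+ T cells was sequenced in 5 PBS and 5 OVA libraries. The authors aligned reads with STAR 2.6.1d to Ensembl release 99 (mm10), obtained gene counts in Partek Flow 9.0 and scaled each library by its median-ratio size factor. The deposited values are therefore a signal, here called normalized counts. In each library 99.932% or more of them were whole multiples, to within 0.1, of what 1 read is worth there, which gave back the reads. Each gene described had at least 1335 reads in every library.

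How far names and values are apart was estimated by a hidden Markov model that allowed -10 to 40 rows (chance of change 0.002 per row, 15 rounds, scikit-learn 1.9.0) from the annotation of names in GENCODE release M21, which held 97.7% of them, and the mean over all libraries, without groups. The distance was 3 rows at all 7 genes (probability at least 0.9996), with the nearest change 237 rows away. Because the model used mean levels, high levels of these genes are no independent support for it. Other genes were used at a probability over 0.9 and, by a rule added after seeing the data, at least 50 rows from a change (17929 genes). The procedure was tested on simulated data.

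With a pseudocount of 1 and on the log2 scale, rows with a mean of at least 1 entered limma 3.58.1 (R 4.3.3), with a trended variance and Benjamini-Hochberg adjustment over 20249 rows. Fold changes are on that scale. Ratios were tested by exact permutation with intervals by inversion of the test, and correlations by 100000 permutations. The recovered reads were also fitted with edgeR 4.0.16 and DESeq2 1.42.0. Other alternatives were pseudocounts of 0.1 and 0.5, other minimums and scalings, other rows and each library left out. P-values measure the spread between these libraries, which may be technical. From each pathway list the genes called and the gene of highest level were named, and the genes most alike were the 5 of highest r, of which some are not reported here. The genes and lists were chosen with earlier results of these data known.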

Additional observations from a re-analysis of the deposited data

How the results depend on the processing

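Under every alternative run for them on their own rows, 0 of the 7 genes were called and no ratio passed its test. There the lowest limma adjusted p-value of the 7 genes was 0.528, for Cd247 without PBS replicate 3. The lowest exact permutation p-value of a ratio was 0.143, for Cd3g to Cd3e without PBS replicate 4. Names read at other rows also gave 0 called and no ratio passing, but these are values of other genes. The lowest there were 0.516 (limma, adjusted) and 0.0873 (exact permutation), both at 2 rows above the name. For the pathway genes, 0 were called with edgeR, DESeq2, equal totals, quantile normalization, each library left out, or genes near a change of distance kept; other rows, pseudocounts and minimums were not run for them. Signs did change. At equal library totals, which moved the median of all rows from 0.042 to 0.15 on the log2 scale, the difference of Cd3d was 0.022, and after quantile normalization it was 0.079. Quantile normalization also gave 0.014 for the ratio of Cd8b1 to Cd8a and -0.0098 for Cd8a to Cd3e.

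Of the readings at other rows, values that changed sign come first. Reading at the row of the name gave 0.032 for Cd3g, 0.029 for Cd247 and -0.15 for Cd8a, and -0.19 for the ratio of Cd3d to Cd3g, 0.75 for Cd8b1 to Cd8a and -0.25 for Cd8a to Cd3e. At 2 rows above the name, the values were 0.056 for Cd3d, -0.046 for Cd3e, 0.10 for Cd3g and -0.28 for Cd8b1, and 0.10 for Cd3d to Cd3e, 0.15 for Cd3g to Cd3e and -0.044 for Cd3d to Cd3g. At 4 rows they were 0.48 for Cd3d, -0.091 for Cd3e, 0.65 for Cd247 and -0.16 for Cd4, and 0.57 for Cd3d to Cd3e, 0.045 for Cd3g to Cd3e, 0.74 for Cd247 to Cd3e, 0.058 for Cd8b1 to Cd8a, -0.19 for Cd4 to Cd8a and -0.065 for Cd4 to Cd3e. The moves farthest in size kept their sign, at 2 rows above the name: -1.63 for Cd247, 1.18 for Cd4, -1.59 for Cd247 to Cd3e, 1.23 for Cd4 to Cd3e and 1.10 for Cd4 to Cd8a. These readings take the values of other genes by construction.

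With each library left out in turn, the log2 difference ran from -0.21 to 0.033 for Cd3d, -0.12 to 0.30 for Cd3e, -0.23 to -0.071 for Cd3g, -0.38 to -0.015 for Cd247, -0.068 to 0.22 for Cd4, -0.069 to 0.20 for Cd8a and -0.077 to 0.18 for Cd8b1. For the ratios it ran from -0.38 to 0.0086 for Cd3d to Cd3e, -0.40 to -0.085 for Cd3g to Cd3e, -0.51 to -0.046 for Cd247 to Cd3e, 0.0033 to 0.10 for Cd3d to Cd3g, -0.028 to 0.011 for Cd8b1 to Cd8a, -0.059 to 0.11 for Cd4 to Cd8a, -0.19 to 0.26 for Cd4 to Cd3e and -0.17 to 0.23 for Cd8a to Cd3e. With 5 libraries a group, the confidence intervals set what could be seen. No paired analysis was run because the labels give no pairing of libraries between the groups.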

Other observations

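Within each group of 5 libraries, no value of the 7 genes or the 8 ratios stood apart by Dixon's ratio of gap to range (critical value 0.71), in 30 groups of values of which chance would mark about 1.5. For Cd3e this includes PBS replicate 4, its highest library. Read at the row that carries the name, 1 of the 7 genes would have a mean below 100 normalized counts, and the median of the 7 would lie at percentile 93.2 of the table in place of 98.7.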
